A study of Homo sapiens with 27 samples.

Results

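Kallikrein proteases were followed through resistance and withdrawal in 3 human colorectal cancer lines. The set holds 6 genes, KLK5, KLK6, KLK7, KLK8, KLK10 and KLK11, found by symbol among 17687 measured genes, and each was represented by a single probe set. These members were chosen from a family of 15 tissue kallikreins with their changes between states known. Their values are therefore given as a description with no test. The other 9 tissue kallikreins were measured on the same arrays and serve for comparison.

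Total RNA of LIM1215, SW48 and Caco2 cells was hybridised to 27 Affymetrix whole-transcript arrays, 3 for each line and state. Parental cells were the untreated lines, which the labels describe as grown out of a single clone, so each line stands for 1 clone. Resistant cells had come through 20 cycles of the EGFR antibody cetuximab (1 ug per ml) combined with NK-CD16 cells, which are natural killer cells bearing an Fc receptor. Withdrawal cells were resistant cells kept for 20 more cycles without that challenge. LIM1215 cells alone were grown with hydrocortisone and insulin in the medium, in every state. Nothing in the labels tells if the 3 arrays of a group came from separate cultures, so p-values measure only the spread between these samples, which may be technical.

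Tissue kallikreins are secreted serine proteases made as inactive precursors. Each is switched on when another protease, often another kallikrein, removes a short propeptide, and the active enzymes are held in check by serpins, Kazal-type inhibitors and alpha-2-macroglobulin. In skin, trypsin-like KLK5 and chymotrypsin-like KLK7 work in a cascade that cuts the desmosomal proteins between surface cells, and several family members can signal by cutting protease-activated receptors. KLK6, KLK7 and KLK10 have been described in tumours of the colon and other epithelia.

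The 15 genes lie in 1 cluster at chr19:50819146-51084210 (GRCh38.p14), and the 6 members occupy an 84.7 kb stretch of it, chr19:50943303-51027991, which also holds KLK9. The order along the chromosome is KLK5 (chr19:50943303-50953038), KLK6 (chr19:50958631-50969591), KLK7 (chr19:50976468-50984064), KLK8 (chr19:50996008-51001604), KLK9, KLK10 (chr19:51012739-51020097) and KLK11 (chr19:51022236-51027991). All are protein-coding. RefSeq promoter sequences were held for 5 of the 6 members, and the 4 that belong to the genes with the largest changes in these data are printed below. They run from 250 bases before to 50 bases after the start site, 5′ to 3′ on the minus strand, which is the coding strand of these genes. Their positions in GRCh38.p14 are chr19:50952989-50953288 for KLK5, chr19:50969542-50969841 for KLK6, chr19:50983868-50984167 for KLK7 and chr19:51019812-51020111 for KLK10. Capitals mark the GC box, GGGCGG or its reverse complement CCGCCC.
KLK5 promoter: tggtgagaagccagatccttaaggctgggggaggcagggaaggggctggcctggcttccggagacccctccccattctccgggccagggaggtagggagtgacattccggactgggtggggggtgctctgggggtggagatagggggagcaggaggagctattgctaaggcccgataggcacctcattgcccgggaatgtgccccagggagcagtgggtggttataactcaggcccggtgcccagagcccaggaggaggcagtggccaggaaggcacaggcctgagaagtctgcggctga
KLK6 promoter: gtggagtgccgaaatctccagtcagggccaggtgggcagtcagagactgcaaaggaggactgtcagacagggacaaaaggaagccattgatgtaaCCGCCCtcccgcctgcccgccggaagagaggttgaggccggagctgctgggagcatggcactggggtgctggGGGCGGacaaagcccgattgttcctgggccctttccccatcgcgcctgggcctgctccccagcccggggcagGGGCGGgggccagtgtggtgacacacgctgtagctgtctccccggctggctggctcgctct
KLK7 promoter: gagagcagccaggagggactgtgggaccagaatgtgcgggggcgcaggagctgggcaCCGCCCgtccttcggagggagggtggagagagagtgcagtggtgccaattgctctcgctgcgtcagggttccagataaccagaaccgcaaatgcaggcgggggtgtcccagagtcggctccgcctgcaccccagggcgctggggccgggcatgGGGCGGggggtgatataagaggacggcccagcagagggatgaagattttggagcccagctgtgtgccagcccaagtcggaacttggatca
KLK10 promoter: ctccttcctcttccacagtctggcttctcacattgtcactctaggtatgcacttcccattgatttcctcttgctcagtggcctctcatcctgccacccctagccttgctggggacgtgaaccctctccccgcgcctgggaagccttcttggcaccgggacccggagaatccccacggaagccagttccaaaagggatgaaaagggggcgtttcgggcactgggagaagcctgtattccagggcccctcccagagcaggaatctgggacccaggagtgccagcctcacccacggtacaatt

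The KLK6 promoter held 3 GC boxes, with first bases at -155, -83 and -11 from the start site, and the KLK7 promoter held 2, at -193 and -40. No GC box was found in the windows of KLK5, KLK10 and KLK11. For scale, 45% of 35116 promoters of the same length held one. The KLK6 and KLK7 windows also held more CpG dinucleotides, 15 and 16, than those of KLK5 with 7, KLK10 with 9 and KLK11 with 3, against a median of 14 over all promoters. The AP-1 site TGANTCA, present in 7.7% of all promoters, the TATA box TATAAA (11.5%) and the steroid receptor motif AGAACA (14.8%), searched on both strands, did not match in any member's window. Such letters describe the windows and say nothing about binding.

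Values are given on the deposited log2 scale, and levels are compared only within a line and a gene, because the scaling between lines is not known. The term near background marks a group mean below the mean 95th percentile of its arrays' 612 negative controls, which ran from 6.56 to 8.19 over the arrays. Where 1 of the compared means was near background, the fold is a lower bound, written "at least". Between 43.4% and 53.5% of genes lay above that percentile on an array. The word called stands for an adjusted p under 0.05 (limma, two-sided, Benjamini-Hochberg over all 17687 genes in each comparison). Of 11 colorectal epithelial markers, all were above background in every LIM1215 group, 9 in every Caco2 group and 6 or 7 in the SW48 groups, where VIL1, CDH17, CDX1 and GPA33 were near background.

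A single array stood apart before any comparison was made. LIM1215 parental replicate 3 had a summed level of 26 type I interferon genes of 18.2, against 14.44 and 14.4 in the other parental arrays, 16.66 to 16.79 in resistant arrays and 15.29 to 15.31 in withdrawal arrays. KLK7 and KLK10 were also highest there, so the kallikrein values of LIM1215 are given with and without it, as are most counts and changes of other genes that rest on the parental arrays. Natural killer cell markers, as a summed level, were also higher in resistant than in parental cells of each line. Of 26 measured markers, 11 were above background in resistant LIM1215 cells, against 1 (EOMES) in the parental and in the withdrawal group. In SW48 the numbers were 2 (GZMA and NCAM1) in resistant cells and 1 (PTPRC) in each of the other states, with the defining genes NKG7, GNLY and PRF1 near background. In Caco2 they were 7 in resistant cells and 0 in the other states. Their summed level ran from 12.87 to 13.18 in resistant LIM1215 arrays against 9.68 to 9.95 in parental arrays, from 9.65 to 10.33 against 8.62 to 8.82 in SW48, and from 12.04 to 12.43 against 8.38 to 8.53 in Caco2. In withdrawal arrays it ran from 9.88 to 9.99 in LIM1215, 9.69 to 9.86 in SW48 and 8.24 to 8.34 in Caco2. This sum thus stayed within the resistant range and above the parental arrays in SW48 withdrawal arrays. Counted by gene, 12 of the 26 markers were lower and 1 higher in withdrawal than in resistant SW48 cells (adjusted p under 0.05). Their median difference was -0.514, and 22.2% of all genes were called. Between parental and withdrawal SW48 cells 1 was higher and 0 lower (median 0.008), beside 4.08% of all genes. The part of natural killer cells in the kallikrein values was not tested. In a bulk sample, fewer cells that make a transcript and less of it per cell cannot be told apart.

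In LIM1215, KLK7 and KLK10 were far lower in resistant than in parental cells and higher again after withdrawal, when KLK10 had regained 79.2% of its log2 difference. That share includes parental replicate 3 and was not recomputed without it. KLK7 was near background in resistant cells, so no such share is given for it, while KLK8 stayed within a narrow range and KLK5, KLK6 and KLK11 lay near background throughout. KLK7, the chymotrypsin-like member, read 9.01, 8.96 and 11.36 on the parental arrays, 3.42, 4.62 and 3.98 on the resistant arrays and 8.16, 8.65 and 8.61 on the withdrawal arrays. No array of 1 state overlapped with those of another, and the third parental array was more than 2 units above the other parental arrays. The resistant group was near background. From parental (9.77 ± 1.37, SD, n = 3) to resistant cells (4.01 ± 0.601) the difference was -5.77 (SE 0.406), at least 4.08-fold lower. That difference runs to a value far under background, and with values floored at the background it was -2.03. The unfloored difference was -4.97 (SE 0.258) without parental replicate 3.

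KLK10, first described as a gene of normal breast epithelium that is lost in breast cancer lines, followed the same order. Its parental arrays read 12.83, 12.70 and 13.78, the resistant ones 8.30, 7.79 and 8.36, and the withdrawal ones 12.08, 12.08 and 12.06. The 3 states did not overlap, and the resistant mean of 8.15 ± 0.31 was above background, with 2 of its 3 arrays above their own limit (replicate 2 read 7.79 against 8.05). The difference from the parental mean of 13.1 ± 0.588 was -4.95 (SE 0.213), 30.9-fold lower, and -4.61 (SE 0.176) without parental replicate 3.

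After withdrawal, KLK7 was 4.47 (SE 0.406) above resistant cells, at least 1.66-fold (0.73 with values floored at the background), and KLK10 was 3.92 (SE 0.213) above them, 15.2-fold. Against parental cells KLK7 was still 1.30 lower on the log2 scale (a difference of -1.30, 2.46-fold) and KLK10 1.03 lower (-1.03, 2.04-fold). Those remaining gaps depended on parental replicate 3: without it they were -0.51 (SE 0.258) for KLK7 and -0.69 (SE 0.176) for KLK10. The 3 comparisons of a line share arrays, so their values are not independent of each other.

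KLK8, a trypsin-like protease also known as neuropsin, read 9.54 to 9.93 on the parental arrays of LIM1215, 9.77 to 9.88 on the resistant arrays and 9.61 to 9.94 on the withdrawal arrays. The 3 states overlapped, and the difference between resistant and parental cells was 0.04 (SE 0.215). KLK5 (2.98 to 3.37), KLK6 (2.96 to 4.44) and KLK11 (2.92 to 4.06) lay far under the negative-control limit on all 9 arrays. KLK6 differed by -1.0 (SE 0.225) between resistant and parental cells, a difference between values that were both near background.

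Counted over the 6 members in LIM1215, 0 were called higher and 3 lower (KLK6, KLK7 and KLK10) from parental to resistant cells, where 10.8% of all genes were called. From resistant to withdrawal cells 3 were called higher, against 27.9% of all genes in either direction, and from parental to withdrawal cells 2 were called lower, against 21.1%. Without parental replicate 3, when 14.7%, 31.2% and 28.4% of all genes were called in the same order, the members' counts were 3 lower, 3 higher and 1 lower (KLK10). Nothing is read from these counts, since the members were chosen with the contrasts known. The median difference of the 6 was -0.59 from parental to resistant cells (-0.66 without that array), beside -0.028 over all genes.

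In SW48 the order of KLK7 and KLK10 between parental and resistant cells was the reverse of that in LIM1215. KLK5, KLK6, KLK7, KLK8 and KLK10 all lay above background in every state of this line and were highest in resistant cells, with the 3 resistant arrays above all parental and all withdrawal arrays. KLK5, the trypsin-like member that can activate other kallikreins, read 8.16, 8.05 and 7.84 in parental cells, 13.16, 13.33 and 13.29 in resistant cells and 8.56, 8.54 and 7.84 in withdrawal cells. Parental and withdrawal arrays overlapped. The resistant mean (13.26 ± 0.089) exceeded the parental mean (8.02 ± 0.161) by 5.24 (SE 0.186), or 37.9-fold. Withdrawal cells were 4.95 below resistant cells (-4.95, 30.9-fold) and 0.30 (SE 0.186) above parental cells.

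KLK6, a trypsin-like protease abundant in brain and raised in several carcinomas, kept part of its increase. Its arrays read 12.76, 12.85 and 12.99 in parental, 15.57, 15.71 and 15.56 in resistant and 13.90, 13.90 and 13.97 in withdrawal cells. The 3 states did not overlap. The increase from parental to resistant cells was 2.74 (SE 0.225, 6.7-fold), of which withdrawal cells retained 1.05 (2.08-fold over parental), after a decrease of -1.69 (3.23-fold) from resistant cells.

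KLK10 read 14.36, 14.30 and 14.30 in parental SW48 cells, 16.42, 16.30 and 16.38 in resistant cells and 14.23, 14.30 and 14.08 in withdrawal cells. The resistant arrays stood alone, and the parental and withdrawal means differed by -0.11 (SE 0.213). Resistant cells were 2.05 (SE 0.213, 4.14-fold) above parental cells, and withdrawal cells 2.16 below resistant cells (-2.16, 4.48-fold).

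KLK7 was already high in parental SW48 cells, at 16.43, 16.42 and 16.36. Its resistant arrays read 17.34, 17.17 and 17.24, and the withdrawal arrays 15.86, 15.96 and 15.92. The states did not overlap, and withdrawal cells were the lowest of the 3. The differences were 0.85 between resistant and parental cells (1.8-fold), -1.34 between withdrawal and resistant cells (2.52-fold) and -0.49 between withdrawal and parental cells (1.4-fold). Their SE of 0.406 comes from a spread pooled over the arrays of all lines, and it was 0.107 for the first difference when the SW48 arrays were fitted alone.

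KLK8 changed by under 1 log2 unit between any states of SW48. Parental arrays read 7.87, 8.15 and 7.13, resistant arrays 8.58, 8.50 and 8.70, and withdrawal arrays 8.34, 8.0 and 7.93. Resistant cells lay above the other states, which overlapped, with a difference of 0.88 (SE 0.215, 1.83-fold) from parental cells and one of -0.51 (1.42-fold) from resistant to withdrawal cells. KLK11 went the other way at levels near background. It read 5.64, 4.96 and 5.46 in parental cells, 3.27, 3.43 and 3.91 in resistant cells and 3.51, 2.91 and 3.44 in withdrawal cells, a difference of -1.82 (SE 0.223) and no fold.

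**Figure D1:**
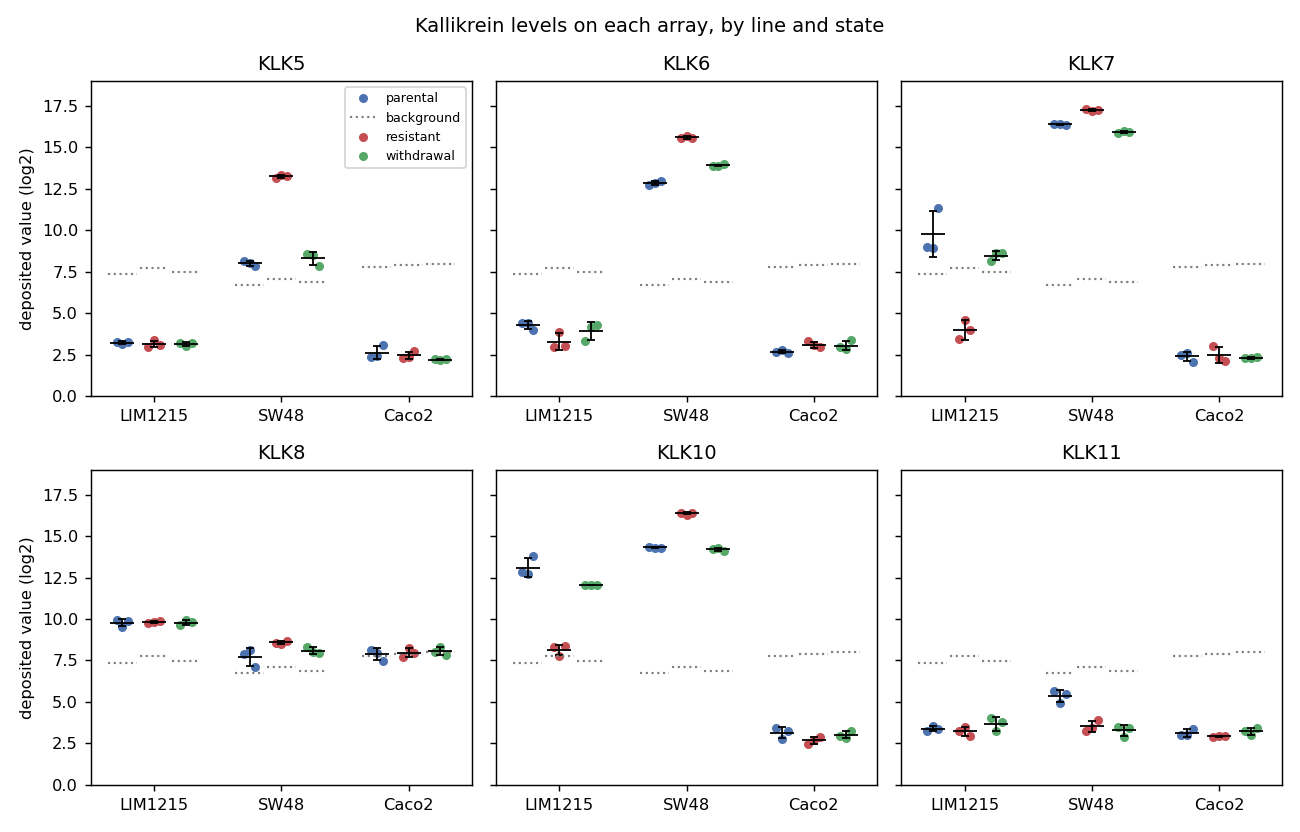
Deposited log2 value of the 6 kallikreins on each array (points), with the group mean and SD (black bars, n = 3), by line and state; dotted lines show the negative-control limit of each group. KLK7 and KLK10 are lowest in resistant LIM1215 arrays, KLK5, KLK6 and KLK10 are highest in resistant SW48 arrays, and in Caco2 only KLK8 reaches the dotted line.

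Over the 6 members in SW48, 4 were called higher (KLK5, KLK6, KLK8 and KLK10) and 1 lower (KLK11) from parental to resistant cells, where 22.7% of all genes were called. Between resistant and withdrawal cells 4 were called lower, against 22.2% of genes called, and between parental and withdrawal cells 1 was called higher (KLK6) and 1 lower (KLK11), against 4.08%. The arrays of parental and resistant cells did not overlap for any of the 6, KLK7 included and KLK11 at levels near background. Over all genes, 35.5% did not overlap in the same comparison. These counts too are only a description. The median difference of the members was 1.46 from parental to resistant cells and -1.51 from resistant to withdrawal cells, beside -0.002 and 0.008 over all genes.

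Caco2 differed from both other lines in having almost no kallikrein signal. KLK5 (2.17 to 3.11), KLK6 (2.60 to 3.36), KLK7 (2.09 to 3.03), KLK10 (2.46 to 3.43) and KLK11 (2.90 to 3.45) lay far under the negative-control limit on all 9 arrays. KLK8 alone reached it, with 8.16, 7.98 and 7.47 in parental cells, 7.73, 8.27 and 7.94 in resistant cells and 8.0, 8.33 and 7.86 in withdrawal cells. These overlapped, and only 2, 3 and 1 of the 3 arrays of each state were above their own limit. Resistant and parental cells differed by 0.11 (SE 0.215). In limma's fit 0 of the 6 members were called in each of the 3 comparisons (1, 0 and 1 at an unadjusted p under 0.05, in the order given next), in which 27.4% (resistant against parental), 24.7% (withdrawal against resistant) and 5.28% (withdrawal against parental) of all genes were called. The lowest and highest differences of members from parental to resistant cells were -0.47 and 0.43.

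Set side by side, KLK7 differed between resistant and parental cells by -5.77 in LIM1215 and 0.85 in SW48, and KLK10 by -4.95 and 2.05. In each line the arrays of both states were fully separated for both genes. This also held for 23.7% of all genes in LIM1215 and 35.5% in SW48. Between the 6 members, the patterns of KLK7 and KLK10 over the 9 groups were nearest to each other, with a root-mean-square difference of 0.38 log2 units after centring each line. KLK6 and KLK8 followed at 0.52, and KLK5 and KLK7 were farthest apart at 1.79. These distances use unfloored values, also where a member was near background. For KLK7 this matters in resistant LIM1215 cells, where the difference from parental cells was -2.03 with values floored at the background. The distances and their order were not recomputed with that floor.

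The other 9 tissue kallikreins gave little signal. KLK1, the kallikrein that releases kinins and sits at one end of the cluster, was above background in LIM1215 only. It read 9.17, 8.95 and 10.34 in parental, 10.50, 10.06 and 10.14 in resistant and 10.39, 10.13 and 10.10 in withdrawal cells. The third parental array lay inside the range of the resistant ones, and the rise of 0.75 (SE 0.233) had an adjusted p of 0.0398. Without that array KLK1 rose by 1.17 (SE 0.164, adjusted p = 1.92e-05), and withdrawal cells remained 1.15 above the other parental arrays (adjusted p = 1.27e-05). Of the 9, 1 was called higher and 0 lower from parental to resistant LIM1215 cells (10.8% of all genes were called), and 0 of 9 were called by limma in SW48 and in Caco2 (1 and 0 at an unadjusted p under 0.05; 22.7% and 27.4% of all genes were called). From resistant to withdrawal LIM1215 cells KLK14 and KLK15 were called higher at levels near background (0.87 and 0.67), beside 27.9% of all genes called. Between parental and withdrawal LIM1215 cells 2 of the 9 were called higher, 1 of them above background in a state, beside 21.1%. With all arrays the KLK1 means of these states were 9.48 and 10.2. KLK9, which lies between KLK8 and KLK10, read 2.17 to 2.69 on all SW48 arrays, where its neighbours were above background.

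**Figure D2:**
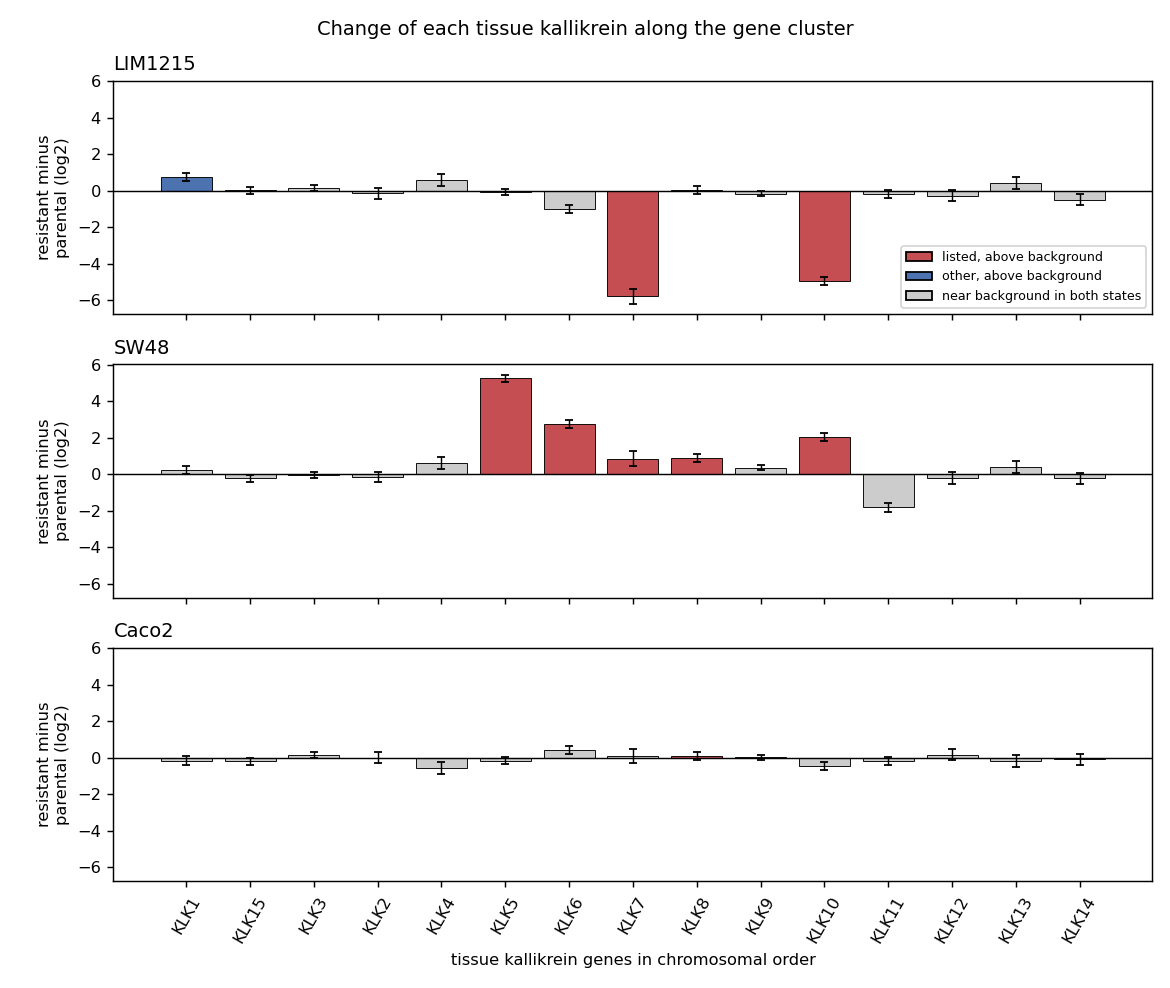
Difference between resistant and parental cells (log2, bars) with its SE (n = 3 per group) for the 15 tissue kallikreins in chromosomal order, one panel per line. Grey bars are near background in both states. In LIM1215 the bars of KLK7 (-5.77) and KLK10 (-4.95) stand out, in SW48 those of KLK5 (5.24), KLK6 (2.74) and KLK10 (2.05), and Caco2 shows none beyond 0.58 in size.

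Most genes flanking the cluster were near background. Of the 20 nearest named genes, 10 on each side, 17 in LIM1215, 17 in SW48 and 18 in Caco2 were near background in both the parental and the resistant state. Called higher in resistant than in parental cells were 1, 4 and 3 of them, with 0 lower, beside 10.8%, 22.7% and 27.4% of all genes called. From resistant to withdrawal cells, 1 was called higher and 2 lower in LIM1215, 0 and 4 in SW48, and 0 and 4 in Caco2, beside 27.9%, 22.2% and 24.7%. The 4 lower in SW48 were the 4 that had been higher there, NKG7, ETFB, LRRC4B and SIGLECL1. NKG7, a granule protein of natural killer cells that lies beside the kallikreins, was called in each line, with a rise of 4.90 in LIM1215 (SE 0.358, adjusted p = 6.51e-10, and 4.90 again without parental replicate 3), 1.78 in SW48 at levels near background, and 3.92 in Caco2. The only flanking gene above background in both states that was called between parental and resistant cells was ETFB, a mitochondrial electron carrier, at 0.54 in SW48 (SE 0.121, adjusted p = 0.00175) and 0.47 in Caco2 (adjusted p = 0.00461). LRRC4B and SIGLECL1 in SW48 (1.36 and 0.80) and VSIG10L in Caco2 (1.62) were called at levels near background.

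The genes with patterns most like a member were taken by the smallest root-mean-square difference over the 9 line-centred group means. For KLK5 these were KRT5, a keratin of basal epithelium (0.096), MYL9, a myosin light chain (0.181), and the tight-junction gene CLDN4 (0.194). All 3 were near background in parental and withdrawal SW48 cells, where KLK5 was above it, so the likeness rests partly on unmeasured levels. From parental to resistant SW48 cells they rose by at least 3.29-fold, 8.92-fold and 3.75-fold (log2 differences of 5.61, 5.11 and 4.88), and from there to withdrawal cells their log2 differences were -5.07, -4.89 and -4.35. For KLK7 they were the WNT antagonist DKK1 (0.476), the matrix protein TGFBI (0.519) and the calcium-binding TESC (0.549), and for KLK10 the receptor ROR1 (0.466), TESC (0.537) and DKK1 (0.578). In LIM1215 the changes from parental to resistant cells were -5.73 for TGFBI, -4.40 for DKK1, -3.91 for TESC and -3.40 for ROR1. They were -5.47, -4.83, -3.64 and -3.45 without parental replicate 3. All 4 were near background in the resistant cells, so these are falls of at least 18.1-fold, 7.44-fold, 3.5-fold and 2.18-fold. In SW48 ROR1 rose by 1.64, whereas TGFBI and DKK1 were near background there. The nearest to KLK6 were CASTOR1 (0.151), LTBP2 (0.223) and S100A3 (0.223), and to KLK8 KIAA0319L (0.047), INHBA (0.048) and LAMTOR2 (0.057). The small distances of KLK8 go with its small range. Ranked over the 27 arrays instead of the group means, the nearest 3 were the same genes for KLK5 (CLDN4, KRT5 and MYL9) and others in part elsewhere. They were TGFBI, CADPS and TESC for KLK7, ROR1, TESC and DUSP4 for KLK10, EPS8L2, KRT18 and LTBP2 for KLK6, and KRTCAP2, SPCS1 and NAGK for KLK8.

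**Figure D3:**
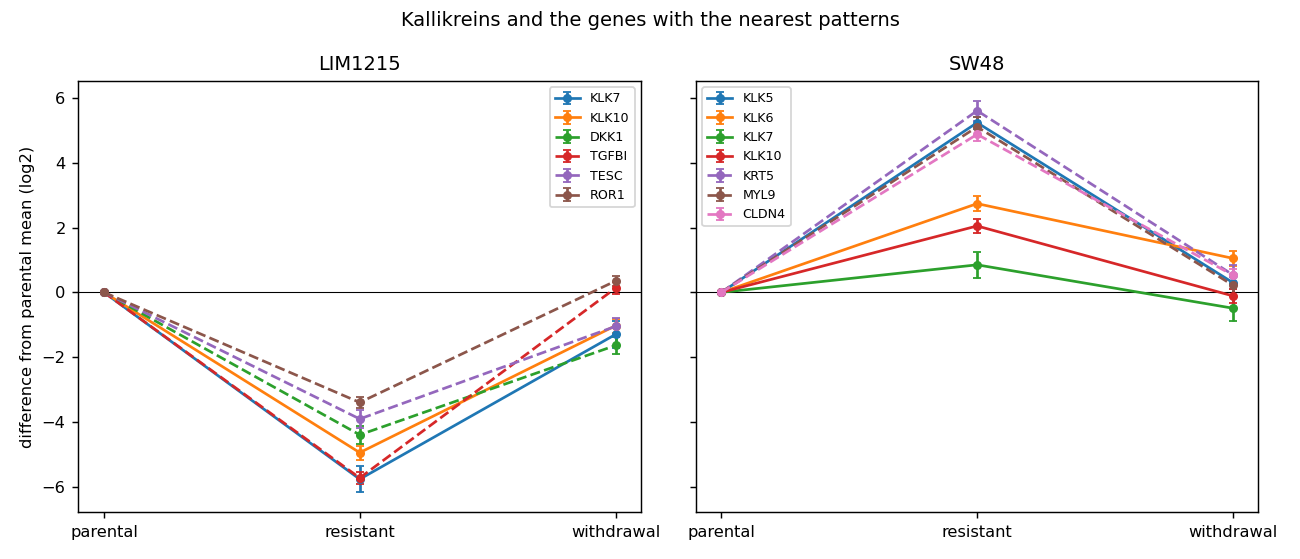
Difference of each state from the parental mean (log2; bars are SE, n = 3 per group) for members (solid) and the genes with the nearest patterns (dashed). In LIM1215 KLK7 and KLK10 drop with TGFBI, DKK1, TESC and ROR1 and return by differing amounts, and in SW48 KLK5, KRT5, MYL9 and CLDN4 rise by 4.88 to 5.61, the last 3 from values near background.

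Inhibitors of kallikreins came from a list of 17 genes, of which 15 were measured. The best known, SPINK5, was not analysed here. The shares of all genes called from parental to resistant cells were 10.8% in LIM1215, 22.7% in SW48 and 27.4% in Caco2. Of the list, 11, 14 and 12 genes were near background in both states. In SW48, 2 rose (1 of them above background in a state) and 1 fell (near background), and SERPINA1, alpha-1-antitrypsin, rose by 7.08 (SE 0.137, adjusted p = 2.4e-20) from near background, at least 5.38-fold, and fell by 5.78 after withdrawal. In Caco2, 6 were called higher and 0 lower. Of the 6, 4 were near background in both states, and the other 2 were SERPINA1 at 4.22 (18.7-fold) and SERPINA4, kallistatin, at 1.81 (at least 2.11-fold). In LIM1215, 2 rose (1 of them above background in a state) and 1 fell. There the Kazal-type inhibitor SPINK1 rose by 2.19 (at least 1.72-fold; 1.57 without parental replicate 3) and SPINK4 fell by 2.37 (at least 1.93-fold, adjusted p = 8.82e-08; -2.65 without that array). The list's median was -0.164 in LIM1215, -0.018 in SW48 and 0.08 in Caco2, beside -0.028, -0.002 and -0.026 over all genes. Without parental replicate 3 the LIM1215 median was 0.005, again with 2 rises and 1 fall.

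Proteases that can act upstream of kallikreins, with their receptors and inhibitors, made a list of 21 genes, 19 of them measured. In LIM1215, 0 rose and 6 fell (median -0.194), beside 10.8% of all genes called. The trypsinogen PRSS2 fell by 3.45, the urokinase receptor PLAUR by 2.87 and the serine protease PRSS22 by 1.77 (adjusted p = 1.18e-08, 0.000497 and 0.012), to resistant levels near background, or at least 8.73-fold, 5.48-fold and 2.66-fold. Without parental replicate 3 their changes were -2.89, -1.83 and -0.85. The list then had 1 rise and 5 falls, the rise being TMPRSS4 at 1.18. In SW48, 5 rose and 4 fell (median 0.051), beside 22.7%, and 1 of the falls was near background in both states. PRSS22 rose by 2.44 (at least 1.71-fold, from near background), PLAUR by 2.01 and the urokinase PLAU by 1.79, while TMPRSS4 fell by 3.53 (at least 3.76-fold), the serpin SERPINB5 by 1.92 and prostasin, PRSS8, by 1.07. In Caco2, 2 rose and 1 fell (median 0.1), beside 27.4%, with TMPRSS2 at 2.00 and TMPRSS4 at -1.29.

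Receptors and substrates made a list of 18 genes, 16 of them measured. From parental to resistant cells, limma called 0 higher in any line. In LIM1215 1 was called lower, beside 10.8% of all genes. This was IL1B, an interleukin that proteases can process, whose difference of -1.89 (at least 1.04-fold) rested in part on parental replicate 3. Its parental arrays read 6.59, 7.08 and 9.75, the first 2 of them under their own limits of 7.42 and 7.50, and the resistant arrays 5.77 to 6.02. Without that array the difference was -0.92 (SE 0.252) between values near background, and IL1B was still called lower. Of the list, 1 was then called higher and 2 lower. In SW48 5 were called lower, beside 22.7%, of which 2 were near background in both states. The others were the desmosomal cadherins DSC2 (-0.84) and DSG2 (-0.32), and APP (-0.45). In Caco2 4 fell, beside 27.4%, with DSC2 at -1.16, fibronectin, FN1, at -1.15 and DSG2 at -1.07. The medians were -0.128, -0.206 and 0.001. E-cadherin, CDH1, another substrate, differed by 0.00, -0.15 and 0.14, with adjusted p of 0.99, 0.391 and 0.396.

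**Figure D4:**
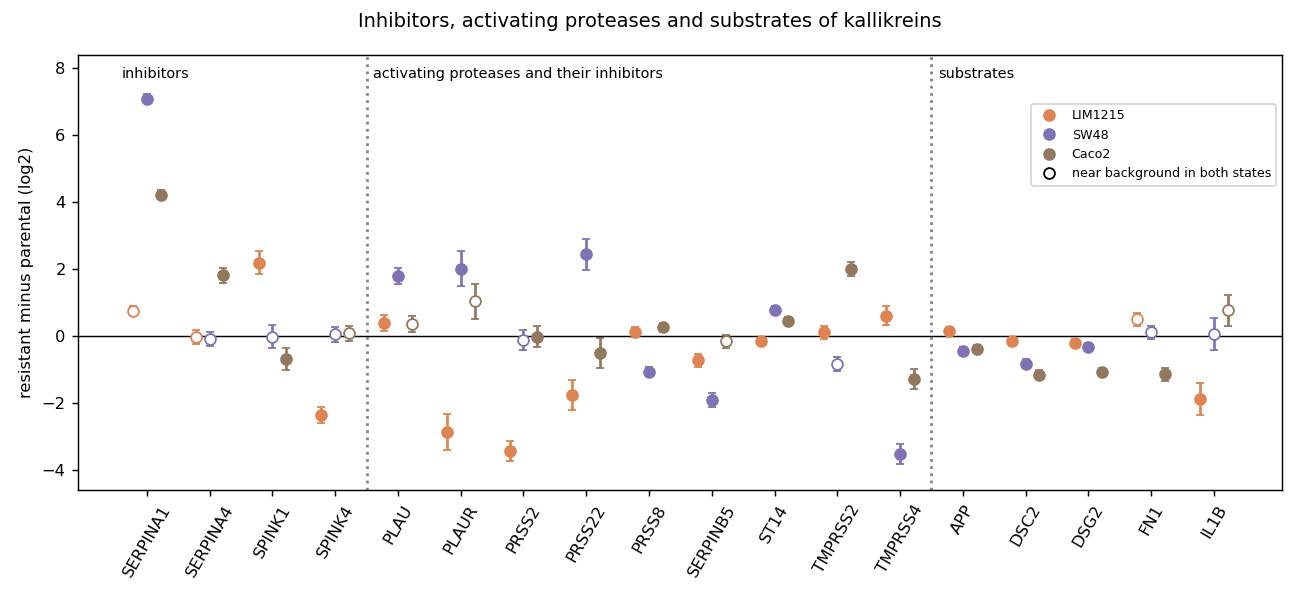
Difference between resistant and parental cells (log2, with SE, n = 3 per group) of the named inhibitors, activating proteases and substrates in each line; open circles are near background in both states. PLAUR and PRSS22 lie below 0 in LIM1215 and above 0 in SW48, and SERPINA1 is at 7.08 in SW48 and 4.22 in Caco2.

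Kallikreins are known from stratified epithelium, so 27 genes of epidermal differentiation were listed, 25 of them measured. In SW48, 4 rose and 2 fell from parental to resistant cells, beside 22.7% of all genes called. KRT5 rose by 5.61 (SE 0.311, adjusted p = 3.1e-12, at least 3.29-fold), the iron-binding lipocalin LCN2 by 4.35 (20.5-fold) and the factor OVOL1 by 1.07, while KRT14, the usual partner of KRT5 in basal cells, fell by 3.59 (at least 9.01-fold) and the desmosomal DSP by 0.70. In LIM1215, 2 rose and 4 fell (1 of these near background), beside 10.8%, with S100A9 at 1.17, the factor GRHL3 at -1.24 and LCN2 at -1.05 (1.39, -1.20 and -0.69 without parental replicate 3, when 3 rose and 4 fell). In Caco2, 2 were called higher, 1 of them near background, and 0 lower, beside 27.4%. Of 8 squamous or basal markers, those above background in SW48 were KRT14 in parental cells, KRT5 in resistant cells, and KRT14 and DSG3 in withdrawal cells. The others stayed near background in that line.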

How the data were processed

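The deposited table gives 1 value per probe set and array, read here as log2 intensities from their range (1.09 to 18.78). The authors' software, background correction and normalization are unknown here, and the values were used as deposited. Of 21448 transcript probe sets, 17709 had 1 gene symbol in the platform annotation, 0 several and 3739 none. The brightest probe set was kept for 20 genes with several.

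With limma 3.58.1 (lmFit, eBayes) in R 4.3.3, the 27 arrays were modelled by 9 group means, leaving 18 residual degrees of freedom beside 4.12 from the prior. The script was checked on simulated data. SEs use this pooled spread. Python 3.11.15 and matplotlib 3.10.9 drew the figures. Precision is limited by the 3 arrays per group.

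The members and lists were chosen with earlier results of these data known. Named are the members, the other tissue kallikreins, called flanking genes, the 3 nearest patterns, and in each list up to 3 genes per direction and line (2 for withdrawal) with the largest change among those called, with separate arrays and a group above background. Alternatives were other scalings, floors, filters, fits and left-out arrays.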

Additional observations from a re-analysis of the deposited data

Results flagged for a closer look

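The results below are those in which all arrays of one line moved in one direction and all arrays of another line in the other, at levels above background in at least 1 state. The differences between the lines were not tested.

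Among the kallikreins, KLK7 and KLK10 did so. From parental to resistant cells KLK7 changed by -5.77 in LIM1215 and 0.85 in SW48, and KLK10 by -4.95 and 2.05. From resistant to withdrawal cells KLK7 changed by 4.47 in LIM1215 and -1.34 in SW48, and KLK10 by 3.92 and -2.16. The LIM1215 values of KLK7 run to or from a resistant level near background. Without parental replicate 3 the LIM1215 changes from parental to resistant cells were -4.97 for KLK7 and -4.61 for KLK10.

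Among listed proteases and epidermal genes, the changes from parental to resistant cells in LIM1215 and SW48 were -2.87 and 2.01 for PLAUR, -1.77 and 2.44 for PRSS22, -1.05 and 4.35 for LCN2, and -1.24 and 0.80 for GRHL3. From resistant to withdrawal cells they were 3.29 and -1.81 for PRSS22, 1.49 and -2.35 for LCN2, and -0.28 and 0.52 for DSP. SFN changed from parental to resistant cells by -0.50 in LIM1215 and 0.45 in Caco2, and on withdrawal by 0.61 in LIM1215 against -0.92 in SW48 and -0.46 in Caco2. Without parental replicate 3 the LIM1215 changes from parental to resistant cells were -1.83 for PLAUR, -0.85 for PRSS22, -0.69 for LCN2, -1.20 for GRHL3 and -0.47 for SFN. PLAUR and PRSS22 were near background in resistant LIM1215 cells, and PRSS22 also in parental and withdrawal SW48 cells.

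Several transcription factors also moved in opposite directions. ATF3 changed from parental to resistant cells by -2.70 in SW48 and 1.29 in Caco2, and on withdrawal by -1.25 in Caco2 against 2.78 in LIM1215 and 2.27 in SW48. FOSL1 changed by -2.75 in LIM1215 and 0.85 in Caco2, and on withdrawal by 2.58 and -1.71. SMAD7 changed by -1.07 in SW48 and 0.45 in Caco2 in resistant cells, and VDR by -0.61 in SW48 against 0.78 in LIM1215 and 0.87 in Caco2. On withdrawal, SOX9 changed by 1.04, -0.66 and -1.14 in LIM1215, SW48 and Caco2. ETV4 changed then by 2.10 in LIM1215 and -0.68 in SW48, CDX2 by -0.69 in LIM1215 and 0.55 in SW48, and FOS by 1.26 in LIM1215 and -1.44 in Caco2.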

How the results depend on the processing

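Same-numbered arrays of a line showed no shared deviation: their deviations correlated at -0.041 to 0.075 over 27 pairs, with 0 over 0.1. This cannot tell if they were cultured or run as numbered sets. With a replicate block, calls over all genes were 1810 for resistant against parental LIM1215 cells and 3858 in SW48. Under quantile normalization the changes from parental to resistant SW48 cells were 5.05 for KLK5, 2.34 for KLK6 and 1.59 for KLK10, and centring on the median gave 2.11 for KLK10. With values floored at the background, KLK7 changed by -2.03 in resistant LIM1215 cells, and differences between values near background turned sign. In LIM1215 KLK6 went to 0.39 (resistant minus parental) and -0.28 (withdrawal minus resistant). In SW48 KLK11 went to 0.36 (resistant) and 0.16 (withdrawal, each minus parental). FOSL1 in Caco2 also turned sign, to 0.11 (withdrawal minus parental). Its parental mean of 7.8 was just above the limit of 7.76, and its withdrawal mean of 6.93 was near background. That floor left 3147, 524 and 2742 calls in Caco2 (resistant minus parental, withdrawal minus parental, withdrawal minus resistant), with 4 and 21 calls in the lists for the last 2. Each line fitted alone, on fewer arrays, gave 1230 and 2227 calls in LIM1215 (resistant and withdrawal, each minus parental), 15 and 18 of them in the lists, and 380 in SW48 (withdrawal minus parental). Leaving out single arrays moved the calls in withdrawal against parental cells from 2260 (without parental replicate 2) to 5019 (without parental replicate 3) in LIM1215, from 448 (without withdrawal replicate 3) to 736 (without resistant replicate 2) in SW48, and from 4 (without withdrawal replicate 3) to 8 in the lists in Caco2. Where no construction is named, the cause was not tested. Of the recomputed kallikrein changes, 936 stayed within 1 SD of the replicates, 23 moved further and 4 turned sign, as given above.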

Other observations

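Of 35 listed transcription factors of squamous and glandular epithelium, 31 were measured. From parental to resistant cells, 4 rose and 4 fell in LIM1215, 4 rose and 8 fell in SW48, and 14 rose and 3 fell in Caco2, with medians of -0.132, 0.007 and 0.378. The shares of all genes called were 10.8%, 22.7% and 27.4%, and 1 of the 8 called in LIM1215, 1 of the 12 in SW48 and 4 of the 17 in Caco2 were near background in both states. In LIM1215 the AP-1 factor FOSL1 fell by 2.75 (6.75-fold, adjusted p = 9.16e-10) and the ETS factors ETV5 and ETV4 by 2.23 (at least 1.89-fold, to near background) and 1.76, and the vitamin D receptor VDR rose by 0.78. Without parental replicate 3 the LIM1215 count was 7 higher and 4 lower, and the changes of FOSL1, ETV5, ETV4 and VDR were -2.66, -1.33, -1.55 and 0.90. In SW48 ATF3 fell by 2.70, ETV5 by 1.70 and SMAD7 by 1.07, while OVOL1 rose by 1.07, GRHL3 by 0.80 and SOX9 by 0.49. In Caco2, where 5 of the 6 kallikreins were near background, the AP-1 genes JUNB, JUN and FOS rose by 2.93, 2.50 and 2.46, and ETV5 and GRHL2 fell by 1.45 and 1.05.

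From resistant to withdrawal cells, 11 of the 31 factors rose and 3 fell in LIM1215. In SW48 8 rose and 8 fell, and in Caco2 1 rose and 11 fell. The shares of all genes called were 27.9%, 22.2% and 24.7%, and 2, 7 and 9 of the falls were above background in a state. In SW48 ATF3 and ETV5 rose by 2.27 and 1.83, while GRHL3 and EHF fell by 2.31 (SE 0.22) and 2.13 (SE 0.281). Against parental SW48 cells 2 were called higher and 5 lower, beside 4.08% of all genes. EHF and RARG were lower (-1.83 and -1.58), and FOSL2 and GRHL1 higher (0.90 and 1.14, GRHL1 from near background). Of 10 steroid and vitamin D response genes 7 were measured. In resistant against parental LIM1215 cells limma called 0 (0 at an unadjusted p under 0.05, and 1, TSC22D3 at 0.71, without parental replicate 3), beside 10.8% of all genes. In SW48 2 fell, 1 of them above background in a state, beside 22.7%. In Caco2 2 rose and 2 fell, with 1 of the falls above background in a state, beside 27.4%. The glucocorticoid-induced TSC22D3 fell by 1.98 in resistant SW48 cells and was 3.12 higher in withdrawal than in parental LIM1215 cells (4.21 without parental replicate 3).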
